A study of Mus musculus with 3 samples.

Results

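A set of 9 genes of cytotoxic lymphocytes was followed in mouse ovaries damaged by chemotherapy, some of which then received stem cells. They were chosen by symbol: the granule genes Gzma, Gzmb, Prf1 and Nkg7, the killer cell receptor Klrd1, and the T cell genes Cd8a, Cd3e, Cd3g and Lck. All 9 were found on the array, with 10 probes, among 19459 named genes with 24392 probes. Gzmb had 2 probes and every other member 1. Earlier results of the same arrays were known when the members were chosen, so their ratios to untreated ovary and the differences between arrays are given as a description.

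Ovaries came from C57BL/6 mice in 4 groups: untreated animals (WT), animals whose ovaries had failed after cyclophosphamide (POF, a model of premature ovarian failure), and such animals given adipose-derived stem cells (ADSC), mesenchymal cells grown from fat. The cells went into a vein (ADSC-iv, the labels' ADSC1) or directly into both ovaries (ADSC-ovary, the labels' ADSC2). Thus all groups except WT had received cyclophosphamide. The ovaries were taken 1 week after treatment, and the labels give neither the animals' age, the drug dose, the number of animals pooled on an array, nor the donor of the cells. On each of the 3 spotted two-colour arrays Cy5 marked 1 treated group and Cy3 marked WT. Since every group had a single array and dyes were never exchanged, no difference below has a replicate check or a p-value, and precision is limited by how few arrays there were.

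Cytotoxic T cells and natural killer (NK) cells kill target cells by releasing granules that hold perforin, which forms pores, and granzymes, proteases that enter through them and start cell death. T cells find their targets through a receptor that signals through the CD3 chains and the kinase LCK, with CD8 as the coreceptor for MHC class I. NK cells lack the CD3 complex at their surface and use receptors such as CD94, the product of Klrd1, which pairs with NKG2 proteins. Both kinds of cell are present in small numbers in the healthy ovary.

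The promoters of the 2 granzyme genes, whose ratios were the farthest from 0 in POF and ADSC-ovary, and of Nkg7, whose ratio stayed near 0, are shown first. Each window runs from 250 bases before to 50 bases after the gene's start, 5′ to 3′ on the gene's strand, from RefSeq with build GRCm38.p6. Capitals mark matches to TGTGGT, the core recognised by RUNX factors of lymphocytes, or to TGACGT, a half-site of the cyclic AMP response element, on either strand. The Gzma window is chr13:113100932-113101231 (minus strand), the Gzmb window chr14:56262285-56262584 (minus strand) and the Nkg7 window chr7:43436888-43437187 (plus strand).
Gzma: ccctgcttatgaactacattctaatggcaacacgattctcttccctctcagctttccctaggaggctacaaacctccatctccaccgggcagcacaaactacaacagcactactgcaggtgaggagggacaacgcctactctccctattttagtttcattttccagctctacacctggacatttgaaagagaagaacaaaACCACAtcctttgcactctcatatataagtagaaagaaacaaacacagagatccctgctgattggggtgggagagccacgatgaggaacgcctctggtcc
Gzmb: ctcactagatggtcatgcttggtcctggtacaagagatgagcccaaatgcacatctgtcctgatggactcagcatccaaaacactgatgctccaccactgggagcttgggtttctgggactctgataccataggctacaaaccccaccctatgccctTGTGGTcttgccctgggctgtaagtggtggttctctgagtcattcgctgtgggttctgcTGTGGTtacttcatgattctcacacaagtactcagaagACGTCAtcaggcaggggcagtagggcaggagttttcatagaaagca
Nkg7: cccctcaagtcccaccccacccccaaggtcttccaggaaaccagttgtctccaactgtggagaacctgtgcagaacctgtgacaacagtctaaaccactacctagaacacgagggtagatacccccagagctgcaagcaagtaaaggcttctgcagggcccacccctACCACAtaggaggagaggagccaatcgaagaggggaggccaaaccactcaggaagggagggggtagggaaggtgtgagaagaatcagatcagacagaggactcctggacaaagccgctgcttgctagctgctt

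RefSeq windows were found for 8 of the 9 members, 9 windows in all, since Lck has a pair of starts. TGTGGT or its complement stood in 5 of the 9 windows (Gzma, Gzmb, Prf1, Nkg7 and 1 of Lck), against 16.8% of all 32851 promoter windows. Gzmb held it at positions -93 and -34 relative to the start, Nkg7 at -83 and Gzma at -50. The half-site TGACGT stood in 3 (Gzmb, Prf1 and Cd3e), against 7.51%. GGAAGT, a core of ETS factors, stood in 4 windows, of Prf1, Cd3e and both Lck starts, against 23.8%. The T-box letters AGGTGTNA stood in the Nkg7 window alone (3.03% of all), the interferon-stimulated response element in that of Gzma (3.44%) and the STAT letters TTCNNNGAA in those of Gzmb and Nkg7 (8.3%). The searches covered both strands, and each motif was counted on its own, also where matches overlap. Granzymes and Nkg7 thus shared a RUNX match although their ratios differed, and a match is only a description of the letters.

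The values are spot medians less the local background, in the scanner's intensity units, and then log2 ratios of Cy5 over Cy3 after loess normalization. A spot is called above background when its median exceeds the local background by more than 2 background SDs. Between 39.9% and 43.4% of the 31920 gene probes passed in at least 1 channel of an array, and none of the 768 blank spots did (0 on each array). Among the members, 6 of 9 passed in the POF channel, 6 in the ADSC-iv channel and 8 in the ADSC-ovary channel. In the WT channels 2, 4 and 2 passed, in the same order of arrays. The dimmest gene probe that passed stood at log2 8.03, 7.71 and 7.94 in Cy3 but at 7.17, 7.21 and 7.11 in Cy5. The limits of the channels thus differed, and pass counts in treated and WT channels are not like for like. Against the ovary label, 11, 13 and 13 of 13 ovarian markers (among them the oocyte genes Gdf9 and Zp3 and the inhibin subunit Inha) were above background in the treated channels. As these are bulk samples, more cells of a type and more RNA per cell cannot be told apart.

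**Figure D1:**
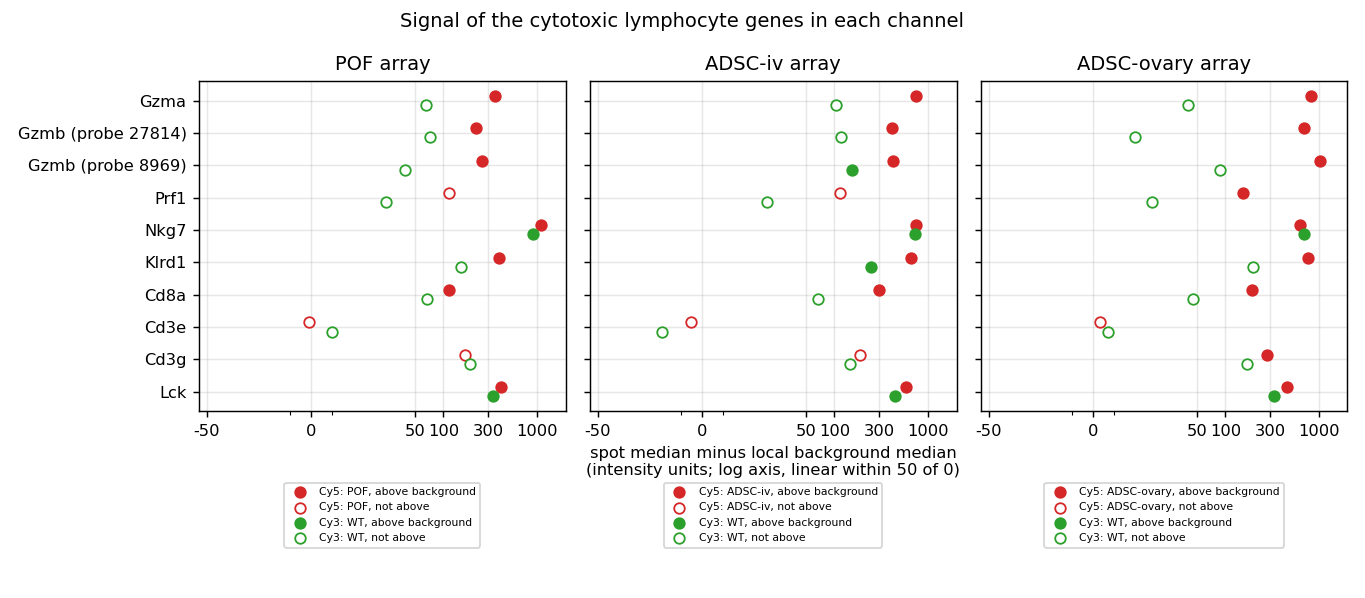
Background-subtracted spot medians (intensity units, log axis that is linear within 50 units of 0) of the 10 probes on the 3 arrays, treated RNA in red and WT RNA in green, filled where above background. Gzma, both Gzmb probes and Klrd1 were above background in all treated channels, and Cd3e lay near 0 in every channel.

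Gzma encodes granzyme A, a tryptase-like protease of the granules. Its Cy5 signal was 353.5 units in POF, 736.0 in ADSC-iv and 822.0 in ADSC-ovary, that is 4.20, 11.2 and 29.8 background SDs above the local background. The WT signals on the same arrays were 64.5, 105.0 and 45.5 units and never above background. Granzyme A signal was therefore above background in all 3 treated channels and in no WT channel. The log2 ratios to WT were 1.11 in POF, 1.84 in ADSC-iv and 2.36 in ADSC-ovary. Because WT gave no measurable level, the fold can only be bounded: against the higher of the WT spot and the dimmest probe above background, Gzma was at least 1.89-fold higher in POF, 3.59-fold in ADSC-iv and 3.89-fold in ADSC-ovary. These bounds use channel values after loess and Aquantile scaling and are open to dye bias. Bounds between treated arrays, given below, use the Cy5 signal alone and can exceed the difference of ratios. The dimmest probe is that of the whole array. A spot with a noisier local background has a higher limit, so here and below the bounds are nominal.

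Gzmb encodes granzyme B, the protease that cleaves after aspartate and activates caspases. One probe (27814) read 221.5, 408.0 and 690.0 units in POF, ADSC-iv and ADSC-ovary, and the other (8969) read 257.0, 424.0 and 1029.0. Both probes stood above background in all treated channels, and both were highest in the injected ovaries. In WT the first probe read 72.0, 117.5 and 20.0 units and the second 45, 155.0 and 88.0, of which 155.0 on the ADSC-iv array alone was above background. Over both probes the log2 ratio was 0.78 in POF, 0.99 in ADSC-iv and 2.35 in ADSC-ovary. The probes gave 0.60 and 0.95 in POF, 1.07 and 0.92 in ADSC-iv, and 2.33 and 2.37 in ADSC-ovary. The ratios lay closest together in ADSC-ovary, but neither WT spot was above background there. The normalized Cy5 signals of the probes were farthest apart on that array, at log2 9.68 and 10.2. In the authors' values the ratios there were 5.29 and 3.61. The bounds were at least 1.43-fold higher than WT in POF and 3.99-fold in ADSC-ovary.

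Prf1 encodes perforin. It gave 114.0 units in POF, 113.5 in ADSC-iv and 152.5 in ADSC-ovary, and only the last was above background, by 2.14 background SDs. Its WT signals of 28.5 to 36 units were not. The perforin probe was thus close to its detection limit on every array. The log2 ratios were 0.38, 0.50 and 0.68. The nominal bound in ADSC-ovary was 1.06-fold, but the WT spot there read 28.5 units at 0.30 background SDs. Its own 2 SD limit thus lay above 152.5 units, and no fold can be given. In the authors' values the same ratios were 1.77, 2.10 and 2.83.

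Nkg7 encodes a membrane protein of cytotoxic granules that takes part in their release. It was one of the members with signal in WT: its Cy5 signals were 1088.0, 732.0 and 631.0 units and the WT signals on the same spots 900.0, 721.0 and 687.0. All 6 were above background. The ratios were -0.02, 0.01 and -0.06, and under other settings they lay between -0.18 and 0.34, -0.27 and 0.17, and -0.44 and 0.02. Nkg7 thus stayed well under 2-fold on each array. Both channels of its spot were dimmer on the ADSC arrays than on the POF array: normalized Cy5 differed by -0.58 and WT Cy3 by -0.61 for ADSC-iv, and by -0.68 and -0.63 for ADSC-ovary.

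Klrd1 encodes CD94, carried by NK cells and some activated CD8 T cells. Its Cy5 signals were 390.0 units in POF, 660.0 in ADSC-iv and 751.0 in ADSC-ovary, with WT at 154.0, 247.0 and 196.0. The treated signal exceeded the WT signal on each array, and WT was above background on the ADSC-iv array alone. The log2 ratios were 0.66, 1.05 and 1.44. On the ADSC-iv array both channels were measured, and this is the ratio of the 3 that needs no bound. Elsewhere Klrd1 was at least 1.58-fold higher than WT in POF and 2.71-fold in ADSC-ovary.

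Cd8a encodes the alpha chain of the CD8 coreceptor. It read 114.0, 296.0 and 194.5 units in POF, ADSC-iv and ADSC-ovary, above background each time but by only 2.32 and 2.38 background SDs in POF and ADSC-ovary. WT stood between 48.0 and 67.0 units and was not above background. The log2 ratios were 0.12, 1.04 and 0.73, so Cd8a was highest after cells into a vein, unlike the granzymes and Klrd1, which were highest after injection into the ovaries. The nominal bounds of Cd8a over WT were 1.89-fold in ADSC-iv and 1.22-fold in ADSC-ovary, and for POF no fold can be given. The WT spots behind these bounds stood at only 0.76 and 0.53 background SDs, so the bounds may be too high.

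The CD3 chains gave little signal. Cd3e, the epsilon chain that defines T cells, lay between -5.0 and 3.5 units in the treated channels and between -19.0 and 10.0 in WT, so this probe measured nothing on any array. Its ratios of -0.33, -0.27 and -0.28 have no order. Cd3g, the gamma chain, read 171.0, 189.5 and 278.5 units against WT at 191.0, 146.5 and 171.0, and only the ADSC-ovary signal was above background (2.28 background SDs). Its ratios were -0.32, 0.13 and 0.39, and the bound in ADSC-ovary was 1.32-fold.

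Lck encodes the SRC-family kinase that starts signalling from the T cell receptor. It was above background in both channels of all arrays, at 409.5, 577.0 and 457.0 units in the treated channels and 336.5, 447.0 and 328.5 in WT. The log2 ratios were -0.02, 0.28 and 0.37. The spread between probes of the same gene, in the members' brightness range, had an SD of 0.29 (POF), 0.27 (ADSC-iv) and 0.31 (ADSC-ovary) over 354 to 374 genes. The Lck ratios were below that SD in POF and barely above it in both ADSC groups. Gzma exceeded that spread on all arrays, as did Klrd1.

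**Figure D2:**
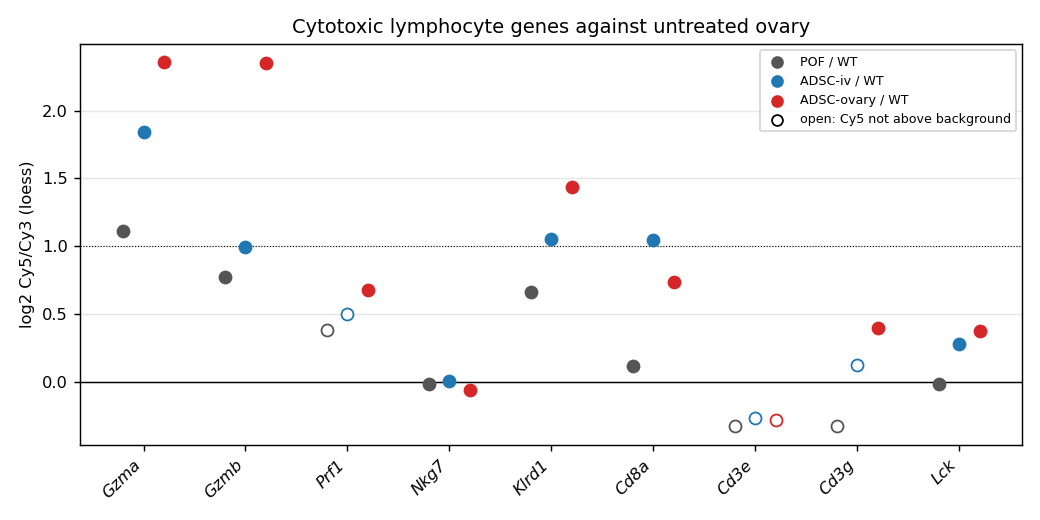
Log2 ratio of Cy5 over Cy3 for each member on the 3 arrays, open where Cy5 was not above background; the dotted line is 2-fold. Gzma, Gzmb and Klrd1 were highest in ADSC-ovary (2.36, 2.35 and 1.44), Cd8a in ADSC-iv (1.04), and Nkg7 lay near 0 throughout.

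Counted by the normalized ratio, which for members dim in WT is no bound, 1 of the 6 members measured in POF against WT had a ratio of at least 2-fold (Gzma), where 1.16% of all 9486 measured genes were. In ADSC-iv against WT it was 3 of 6 (Gzma, Klrd1 and Cd8a) beside 2.0% of genes, and in ADSC-ovary against WT 3 of 8 (Gzma, Gzmb and Klrd1) beside 2.68%. For Gzma in POF and Cd8a in ADSC-iv the bounds above, both 1.89-fold, fall short of 2-fold. None was 2-fold lower (0 in each comparison), where 0.928%, 0.551% and 0.352% of genes were. Most of these members were measured only because the treated channel was above background, which favours ratios over 0: among measured genes with WT not above background, 3.4%, 4.55% and 8.02% were at least 2-fold higher. Over all 9 members, dim ones included, the median log2 ratio was 0.12 in POF, 0.50 in ADSC-iv and 0.68 in ADSC-ovary, against 0.01, 0.0037 and 0.0022 over all measured genes. The contrasts chose the members, so nothing is read from these counts. All 3 comparisons also have WT as their control, but whether 1 pool of WT RNA served all arrays is not stated, so differences of ratios between arrays may hold differences between WT samples.

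The ADSC-iv and POF arrays were then set against each other, to ask what cells given into a vein added to chemotherapy. Because the treated RNA was in Cy5 on both, a dye effect of a probe cancels in the difference of ratios. Cd8a had a difference of 0.93, Gzma 0.73, Klrd1 0.39, Lck 0.30 and Gzmb 0.22, and none of the 6 measured members reached 2-fold (0, beside 0.513% of 9168 genes). Cd8a passed 2-fold under other settings, with 1.01 after median centring, 1.57 after plain background subtraction and 1.39 in the authors' values. In the Cy5 signal alone, with the WT channel left out, Gzma differed by 0.73, Cd8a by 0.72, Klrd1 by 0.49, Gzmb by 0.44 and Lck by 0.29. The Gzma difference was the same with and without the WT channel, which was not above background on either array. The Gzmb difference was below 0 under some settings, down to -0.33, and so had no settled direction.

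For cells injected into the ovaries, the ADSC-ovary array was set against the POF array in the same way. Gzmb had the largest difference of the members, 1.57, followed by Gzma at 1.25, Klrd1 at 0.78, Cd8a at 0.62 and Lck at 0.39. Cd8a was at 1.28 after background subtraction and 1.35 in the authors' values, and Klrd1 at 1.02 in the latter. Of 6 measured members, 2 reached 2-fold (Gzma and Gzmb), beside 0.65% of 9077 genes and 3.38% of the 444 with WT not above background. In the Cy5 signal alone Gzmb differed by 1.39, Klrd1 by 0.75, Cd8a by 0.33 and Lck by 0.10, and Gzma, at 0.95, no longer reached 2-fold (2.04% of genes did). The WT channel differed by -0.29 for Gzma, Cd8a and Lck and by -0.18 for Gzmb, so lower WT readings on the ADSC-ovary array entered the ratios. Over 4195 genes of the same brightness range the WT signal had an SD of 0.28 between these arrays and the treated signal 0.42. The Gzmb difference was larger than both, and that of Lck in the Cy5 signal was smaller than both. Prf1 and Cd3g were above background in ADSC-ovary and not in POF, with nominal bounds of 1.07-fold and 1.34-fold. For Prf1 no fold can be given, because its POF spot read 114.0 units at only 1.26 background SDs. That spot's own 2 SD limit lay above the 152.5 units of ADSC-ovary.

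The routes were compared directly from the ADSC-ovary and ADSC-iv arrays. Gzmb was higher in the injected ovaries by 1.36, the 1 measured member of 6 past 2-fold (0.634% of 9457 genes were), and by 0.95 in the Cy5 signal alone. Gzma had 0.51 and Klrd1 0.39, or 0.23 and 0.26 in Cy5 alone. The Gzma difference depended on the setting, being 1.18 after background subtraction and 1.44 in the authors' values, both past 2-fold. Cd8a was lower by -0.31, or -0.39 in Cy5 alone. Among the 6 members with Cy5 above background on all arrays, Gzma, Gzmb and Klrd1 stood in the order POF, ADSC-iv, ADSC-ovary, where 17.1% of 8669 genes did. Neighbours in that order that differed by less than the 0.39 SD of treated signals between the ADSC arrays were Gzma and Klrd1 in ADSC-iv and ADSC-ovary. Gzmb (0.95) differed between the routes by more than that SD, Cd8a (-0.39) lay at it, and Cd3g, above background in ADSC-ovary alone, differed by 0.44.

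**Figure D3:**
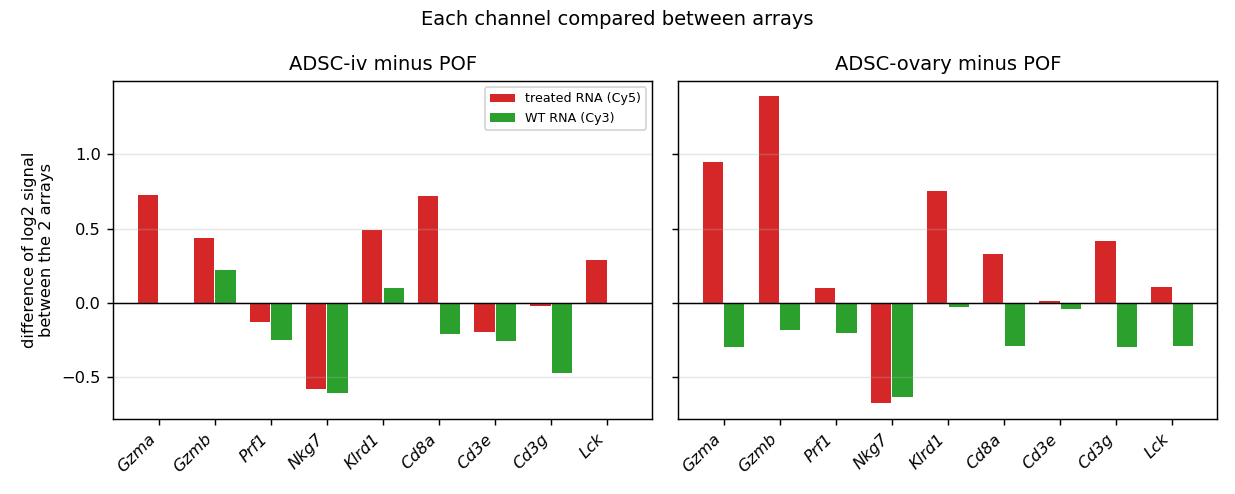
Difference of normalized log2 signal between arrays for each member, in the treated channel (red) and in the WT channel (green), for ADSC-iv less POF and ADSC-ovary less POF. The treated bars of Gzmb (1.39) and Gzma (0.95) stand out on the right, and Nkg7 was lower in both channels alike.

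The other genes of killing and of T and NK cells were described from lists chosen with earlier results known. Ratios given for them are normalized ratios, and where WT was not above background they are no bounds. Among NK cell receptors and adaptors, 16 of 18 were on the array, and 4, 8 and 7 had Cy5 above background in POF, ADSC-iv and ADSC-ovary. In WT 1, 2 and 1 passed, in a channel with a higher limit, so the counts are not like for like. Klrk1, the activating receptor NKG2D, had ratios of 1.03, 0.88 and 2.09, and its 2 probes gave 1.5 and 2.69 in ADSC-ovary. Tyrobp, the adaptor DAP12 that macrophages use too, had 0.91, 1.53 and 1.82, and Hcst, the adaptor DAP10 of NKG2D, 0.35, 0.75 and 0.41. For Klra7, a Ly49 receptor, 1 probe gave 1.01, 2.49 and 2.18 while the other two were never above background, and Ly49 genes are similar enough to share signal. Klra8, the Ly49H receptor, was above background in both ADSC groups alone and was picked after its values were seen. Its nominal bounds over POF, in Cy5 alone, were 2.34-fold in ADSC-iv and 1.87-fold in ADSC-ovary. The log2 differences of ratios were 1.05 and 1.18.

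Other granzyme genes gave no signal. Of 15 further granule genes on the array, 4, 5 and 5 had Cy5 above background, and Gzmc, Gzmd, Gzme, Gzmg, Gzmk, Gzmm and Gzmn were not above background in any channel. Srgn, the proteoglycan that packs granzymes but is common to blood cells, had 0.48, 0.43 and 1.03, and Ctsc, the protease that activates granzymes, 0.58, 0.41 and 0.88. Rab27a, which carries granules to the membrane, had -0.50, -0.19 and -0.34 and Stx11, of the release machinery, 0.13, -0.16 and 0.12. Among inhibitors and checkpoint genes, Serpinb9, the mouse inhibitor of granzyme B, had 0.05, -0.28 and 0.45, and Serpinb6b -0.09, 0.15 and 0.10. Btla had 0.65, 0.90 and 0.20, with no fold to be given in POF and neither channel above background in ADSC-ovary. Cd274, the ligand PD-L1 that restrains T cells, had 0.73, 0.67 and 2.17.

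T cell receptor genes were mostly dim, as Cd3e and Cd3g were. Of the complex and coreceptors, 9 of 14 were on the array, and 1, 2 and 3 had Cy5 above background; Cd247 and Cd4 had none on any array. Cd2, an adhesion receptor of T and NK cells also picked after its values were seen, was above background in both ADSC groups alone, at least 1.22-fold higher than WT in ADSC-iv and 1.10-fold in ADSC-ovary. Icos, a costimulatory receptor, had 0.09, 0.22 and 0.33. Of 17 signalling genes 3, 6 and 8 were above background, with Fyb, an adaptor that myeloid cells use too, at 0.56, 1.01 and 1.33 and Fyn at -0.19, -0.24 and -0.26. Themis was above background in POF alone, with a ratio of 0.66. Its Cy5 level there was below the dimmest WT probe that passed, so no fold can be given. Of 12 lymphocyte transcription factors 3 passed in each treated group; Tbx21 and Eomes, which drive granzyme genes, were not above background on any array, and Ikzf1 (0.22, -0.09 and 0.13), Zeb2 (0.01, 0.02 and 0.24) and Lef1 (0.19 and 0.13 in POF and ADSC-iv) were all within 0.24 of 0. Runx3, a RUNX factor of CD8 T cells named after its values were seen, was above background in ADSC-ovary alone. Its nominal bound over POF, in Cy5 alone, was 1.54-fold, while the log2 difference of ratios was only 0.32. Against WT no fold can be given.

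Several signals to and from these cells were highest in the injected ovaries. Of 19 lymphocyte cytokine and receptor genes on the array 5, 6 and 8 passed, and in ADSC-ovary against POF 2 of 5 measured reached 2-fold (Ccl5 and Ccl3), beside the 0.65% of all measured genes, or 3.38% of those with WT not above background. Ccl5, a chemokine that activated T and NK cells make, had ratios of 0.29, 0.92 and 2.65, with probes at 2.49 and 2.81 in ADSC-ovary. Ccl3 had 0.93, 0.93 and 1.95, but bounds against WT of only 1.01-fold, 1.18-fold and 2.12-fold. Ltb had -1.05, -0.76 and -0.35, and Il2rg, the shared receptor chain, 0.39, -0.08 and 0.60. Ifng, the interferon of T and NK cells, was above background in the ADSC-ovary channel alone. Its nominal bounds, in Cy5 alone, were 3.73-fold over POF and 3.64-fold over ADSC-iv, and the log2 differences of ratios 1.83 and 2.07. Xcl1, a chemokine of the same cells, was also seen in ADSC-ovary alone. Its nominal bounds were 1.96-fold and 2.06-fold, and the differences of ratios 0.92 and 1.07. Ifng and Xcl1 were singled out after their values were seen.

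Among chemokine receptors and ligands, 10 of 11 were on the array, and 5, 6 and 6 passed. Cxcl9, an interferon-gamma-induced ligand of CXCR3, a chemokine receptor of T cells, had 1.68, 2.30 and 4.54. Cxcl11, a second CXCR3 ligand named after its values were seen, had a nominal bound of 6.46-fold in ADSC-ovary over POF, in Cy5 alone. Its log2 difference of ratios was 3.18. Cxcr3 itself was not above background anywhere. S1pr1 had -0.10, -0.66 and -0.13 and Cx3cr1 -0.0025, 0.07 and 0.49.

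**Figure D4:**
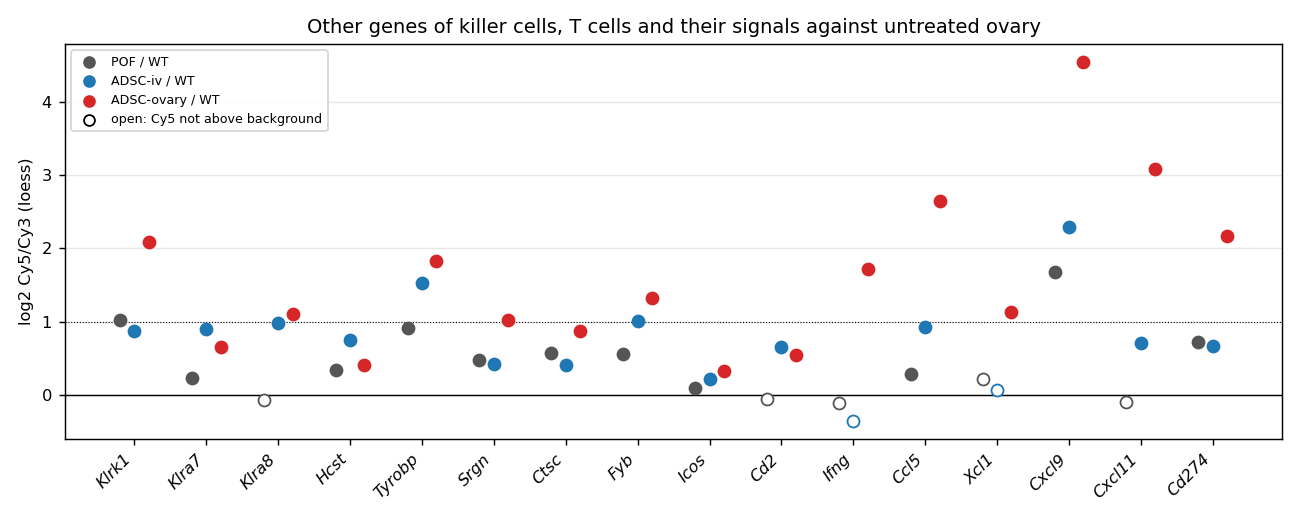
Log2 ratio of Cy5 over Cy3 on the 3 arrays for 16 genes of NK cells, granules, T cells and their signals, open where Cy5 was not above background; WT was not above background for many of them. Ifng, Ccl5, Xcl1, Cxcl9, Cxcl11 and Cd274 were highest in ADSC-ovary.

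Most measured markers of macrophages, neutrophils and leukocytes at large were also higher in treated ovaries than in WT. Macrophage markers had Cy5 above background in 13, 12 and 12 of 14 genes, and their summed normalized signal was 57174 units in POF, 67102 in ADSC-iv and 90077 in ADSC-ovary, against 29065 to 31679 in WT. Among them Fcgr1 had ratios of 1.58, 1.63 and 2.32, Aif1 1.46, 2.13 and 2.44, Msr1 1.25, 0.88 and 1.64 and Fcer1g 1.24, 1.56 and 2.25. These had the largest POF ratios of the list. Of the measured macrophage markers 13 of 13, 12 of 12 and 11 of 12 had ratios above 0. Csf1r had only 0.28, 0.24 and 0.46, and Cd163, measured in ADSC-ovary alone, had -0.17 there. Neutrophil markers passed in 8 of 12 genes in each treated group, summing to 7229, 5306 and 10415 units against 2026 to 2173 in WT. S100a9 had 2.21, 2.17 and 3.33 and Ltf 1.77, 0.77 and 1.10. Ly6g, Mmp8 and Mmp9 were not above background in any channel. Pan-leukocyte genes passed in 10, 11 and 11 of 13, with Cd52 at 1.28, 2.12 and 2.14, Cd53 at 1.21, 1.04 and 1.02, Coro1a at 1.10, 0.81 and 1.71 and Laptm5 at 0.19, 0.28 and 1.11. Their part in the members' values was not tested, and the members alone summed to 4006, 4517 and 5206 units against 2701 to 3438 in WT.

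B and plasma cell markers above background were few. Only 2, 2 and 1 of 12 had Cy5 above background. The sums over all 12 were 2350, 2308 and 2118 units against 2288, 2362 and 2068 in WT. Most genes in these sums were not above background, so nothing about B cells is read from how close the sums were. Cd79a, Ms4a1 and Pax5 were not above background in any channel. Cd79b, a chain of the B cell receptor, had 0.54, 0.63 and 0.79. Jchain, the joining chain of secreted antibody, was named after its values were seen. It was above background in WT on all arrays and in no treated channel, and so at least 2.59-fold, 2.57-fold and 2.46-fold lower than WT in POF, ADSC-iv and ADSC-ovary. Mzb1, of plasma and B cells, had -0.07, -0.56 and -0.25, the last with neither channel above background. The medians of the measured genes of the list were -0.07, -0.27 and -0.44, over only 3, 4 and 2 genes. In ADSC-ovary these were Cd79b and Jchain, which went opposite ways. Erythroid sums were 42899, 28838 and 44070 units in POF, ADSC-iv and ADSC-ovary, against 11762 to 17881 in WT (Hba-a1 had ratios of 1.85, 0.64 and 1.79). Oviduct sums were 8809, 2574 and 3089, against 2156 to 2561 in WT (Ovgp1 had 4.02, 0.12 and 0.20). The part of either tissue in the members' values was not tested. The summed ovarian markers were 168451, 124148 and 119868 units against 157777 to 179606 in WT.

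The genes nearest to the members' mean profile were sought over the 3 ratios to WT. That mean joins unlike profiles, such as flat Nkg7 and rising Gzma, so a gene near it need not resemble any single member. The mean profile of the 6 members with Cy5 above background on all arrays was 0.44, 0.87 and 1.20. Nearest to it by Euclidean distance, among 8299 genes, were Pycard, the inflammasome adaptor ASC (0.40, 0.94 and 1.19, distance 0.08), the interferon-induced genes Ifit2 (0.39, 0.94 and 1.18, distance 0.09) and Ifitm3 (0.47, 0.95 and 1.06, distance 0.16), and the complement gene C1qa of macrophages (0.53, 0.74 and 1.25, distance 0.17). Mamdc2 and Guca1a followed at 0.19 and 0.20. None of the 6 is a T cell or NK cell marker in the lists used here. With 3 arrays the points per gene are too few to give more than a ranking.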

How the data were processed

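Spot and local background intensities of 3 two-colour arrays were read as deposited, neither subtracted nor normalized per the file headers. They came from LuxScan 3.0 per the series' design text. The authors' processed log2 values served as an alternative. How they were normalized is not given in the sources used here. They correlated with the log2 scanner ratios with r of 0.982, 0.971 and 0.957 over spots above 500 units. The meaning of a flag of 100 or -100 that the authors deposited for each spot, a value of another kind, is not stated.

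Intensities were corrected by normexp (offset 50) and normalized by loess within arrays, giving control spots a weight of 0 (limma 3.58.1, R 4.3.3; tested on simulated data). Channels were scaled by Aquantile. Probes of a gene were averaged. A gene was measured when either channel exceeded background by 2 SDs on each array used. Of 19518 array names, 14166 were current symbols and 3897 unique synonyms in RefSeq. Tables used Python 3.11.15 and pandas 2.3.3. No test was possible with 1 array a group, and a call means a log2 value of at least 1.

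Members and lists were chosen with earlier results of these data known. From each other list up to 4 genes with the largest absolute values and Cy5 above background on the arrays compared are named, plus the 6 nearest to the members' mean profile. Some genes that this rule or a list holds are not reported here.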

Additional observations from a re-analysis of the deposited data

Results flagged for a closer look

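Under the same contrast, some members lay on opposite sides of 0 in different groups, and the difference was not tested. Nkg7 was at -0.0158 in POF, 0.0104 in ADSC-iv and -0.0594 in ADSC-ovary against WT, and at 0.0261 in ADSC-iv and -0.0437 in ADSC-ovary against POF, all far inside the probe spread of 0.27 to 0.31. Lck was at -0.0181 in POF against 0.28 in ADSC-iv and 0.37 in ADSC-ovary.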

How the results depend on the processing

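The values were recomputed with median centring, with plain background subtraction, from the authors' values, from spots with a flag of 100 only, with the brightest probe, over measured members only and, between treated arrays, from Cy5 alone (for single members this last was chosen after seeing the data). A value was taken as moved when it shifted by more than the SD between probes. The median over all 9 members was 0.12 in POF against WT, but 1.21 in the authors' values and 0.66 over members measured at 3 SDs. In ADSC-iv against WT it was 0.50, but 0.90 with subtraction, 1.51 in the authors' values and 1.02 over members measured at 2 or at 3 SDs. In ADSC-ovary against WT it was 0.68, but 1.27 with subtraction, 1.85 in the authors' values, and 1.44 with flag 100 only and over members measured at 3 SDs. In ADSC-ovary against ADSC-iv it was 0.18, but 0.60 in the authors' values. The cause was not tested. The medians of both ADSC groups against POF moved by less than the spread. For single members, 206 values moved by less than the spread and 57 by more, and no value at least 2-fold as first given changed sign. Cd3e in POF went from -0.33 to 4.57 in the authors' values. The normalized ratios of Gzma against WT, and of Gzmb in ADSC-ovary against WT and POF, were at least 2-fold under every setting run, although WT was not above background and the bound for Gzma in POF is 1.89-fold. So were the ratios against WT of Klrd1 in both ADSC groups and of Cd8a in ADSC-iv, where the bound for Cd8a is 1.89-fold. Of these, WT was above background for Klrd1 in ADSC-iv alone. The flag 100 setting could not be run for Gzma in POF and ADSC-iv, where its spot had a flag of -100. The same held for Klrd1 and Cd8a in ADSC-iv. Klrd1 in POF reached 2-fold only in the authors' values. Cd3e, at background, ranged from -5.93 to 0.33 in ADSC-iv against POF. Median centring moved the all-gene median by up to 0.33 (POF against WT). Genes 2-fold higher and lower numbered 110 and 88 in POF against WT, 264 and 30 with median centring, 246 and 208 with subtraction and 571 and 224 in the authors' values. The same settings in order gave 203 and 56, 433 and 28, 360 and 168, and 664 and 196 in ADSC-iv against WT, and 266 and 35, 442 and 22, 411 and 181, and 728 and 153 in ADSC-ovary against WT. They gave 47 and 32, 37 and 67, 101 and 125, and 239 and 341 in ADSC-iv against POF, 59 and 14, 48 and 68, 112 and 119, and 310 and 313 in ADSC-ovary against POF, and 60 and 31, 60 and 48, 141 and 120, and 379 and 265 between the ADSC arrays. No paired analysis was possible because each group has 1 array. Signal over background limits Prf1, Cd3e and Cd3g most.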
